A study of Mus musculus with 13 samples.

Results

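The histone cluster genes make most of the histone protein that packages newly copied DNA: the core histones H2A, H2B, H3 and H4 and the linker histone H1. They were taken as the rows of the count table whose symbol begins with H1f, H2ac, H2bc, H3c or H4c, the current names of the genes once called Hist1h and Hist2h, and 69 of 24470 genes met this. Of these, 64 lie in the histone clusters, 54 on mouse chromosome 13 and 10 on chromosome 3, and comprise 6 H1, 17 H2A, 17 H2B, 12 H3 and 12 H4 genes. The remaining 5 (H1f0, H1f7, H1f8, H1f9 and H1f10) are linker histone genes on chromosomes 6, 11 and 15 that share only the name, and are given apart from the cluster genes. Another 4 genes that once carried Hist3h or Hist4h names (H2aw, H2bu1-ps, H2bu2 and H4f16) have names with other beginnings and were not counted.

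All libraries came from 1 line, E14 mouse embryonic stem cells of 129/Ola origin grown in serum with leukemia inhibitory factor, with no treatment or genetic change named. In the low-input protocol the transposase Tn5 cut accessible DNA in lysed cells (ATAC), and oligo-dT beads then took polyadenylated RNA out of the same lysate, so that each mRNA library has a matched ATAC library. It was applied to 5000 cells in experiment 2 and to 10000 and 20000 cells in experiments 1 and 2, which were done on different days, giving 5 mRNA and 5 ATAC libraries. Omni-ATAC, a reference protocol without mRNA, was applied to 5000, 10000 and 50000 cells, 1 library each. Nothing in the labels says that any of these libraries came from separately grown cultures, so the p-values below measure the spread between these libraries. Where experiments are compared, the libraries on each side come from 1 experiment and differ in cell number. Those p-values measure the spread within an experiment, with 1 experiment on each side. Where cell numbers are compared, the libraries on each side come from experiments 1 and 2. Below, values for the mRNA libraries are listed in a fixed order: 5000 cells of experiment 2, 10000 cells of experiments 1 and 2, and 20000 cells of experiments 1 and 2.

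Messenger RNAs of most cluster genes are made in S phase and are the main animal mRNAs that carry no poly(A) tail. Their 3′ end is cut behind a conserved stem-loop, which is held by the stem-loop binding protein SLBP, while the coactivator NPAT switches the genes on in nuclear foci called histone locus bodies. Linker and replacement histones made outside S phase, such as H1f0 or H3f3b, come from genes elsewhere in the genome whose mRNAs are polyadenylated. Mouse embryonic stem cells divide rapidly and spend much of their cycle in S phase. The comparison made here is therefore between reads from poly(A) RNA and open chromatin at the promoter, gene by gene.

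The mRNA libraries held 13727122 to 20426252 counts, so that 3 counts, the upper limit that a count of 0 allows, correspond to 0.147 to 0.219 CPM, the counts scaled to a library total of 1000000. All 8 listed embryonic stem cell markers were present, with summed levels of 2980 to 3223 CPM. The ATAC lists hold between 9097 peaks (Omni-ATAC, 5000 cells) and 95457 peaks (Omni-ATAC, 50000 cells), and the low-input lists between 18637 and 49508. The lists give positions only, with no height or score.

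The promoter sequences below show the elements that the cluster genes share and where they differ. RefSeq promoter windows (GRCm38.p6, from 250 bases before to 50 after the start) matched 64 of the 69 genes, 59 of them cluster genes, and 50 had a start equal to that of the count table. Capitals mark TATAAA (a core promoter element), CCAAT (bound by nuclear factor Y), ATTTGCAT (the octamer bound by Oct factors) and AAACACA (the H1 box), each on either strand. The motifs can touch but do not contain one another. The H2A-H2B gaps are the whole stretch between a pair of genes transcribed away from each other, read on the strand of the first gene, and the others are the 150 bases before a start. The first pair was chosen because its genes differ most in reads, the second because it has the next highest summed level, H3c2 for its low reads and open promoter, H1f4 for its H1 box and H4c2 for having none of the 4 motifs. The last pair and H1f6 stand for cluster genes with no peak in any list.
H2ac6 to H2bc4 gap (chr13:23683960-23684198, minus strand): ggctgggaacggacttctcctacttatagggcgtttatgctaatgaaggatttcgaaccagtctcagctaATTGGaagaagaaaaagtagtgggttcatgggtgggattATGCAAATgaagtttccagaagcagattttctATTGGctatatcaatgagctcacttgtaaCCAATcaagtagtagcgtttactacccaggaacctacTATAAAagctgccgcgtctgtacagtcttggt
H2ac8 to H2bc8 gap (chr13:23571221-23571399, minus strand): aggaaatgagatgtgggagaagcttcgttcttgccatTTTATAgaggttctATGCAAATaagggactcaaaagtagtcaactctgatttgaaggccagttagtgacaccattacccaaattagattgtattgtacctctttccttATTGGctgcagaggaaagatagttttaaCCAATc
H3c2 upstream (chr13:23752195-23752344, plus strand): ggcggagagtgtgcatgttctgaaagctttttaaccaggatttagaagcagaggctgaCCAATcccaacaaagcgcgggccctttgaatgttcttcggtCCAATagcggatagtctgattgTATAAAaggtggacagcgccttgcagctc
H1f4 upstream (chr13:23622559-23622708, minus strand): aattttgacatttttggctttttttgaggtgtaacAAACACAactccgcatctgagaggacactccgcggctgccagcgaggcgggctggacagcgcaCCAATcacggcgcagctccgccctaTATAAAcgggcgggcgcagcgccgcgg
H4c2 upstream (chr13:23756787-23756936, plus strand): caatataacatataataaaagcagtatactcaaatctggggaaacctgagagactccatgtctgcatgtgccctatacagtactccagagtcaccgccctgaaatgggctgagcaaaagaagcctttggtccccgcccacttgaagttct
H2bc23 to H2ac23 gap (chr13:21810200-21810366, minus strand): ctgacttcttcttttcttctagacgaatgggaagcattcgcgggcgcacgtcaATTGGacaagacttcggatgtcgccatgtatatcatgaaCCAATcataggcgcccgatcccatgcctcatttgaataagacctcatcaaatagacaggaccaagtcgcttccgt
H1f6 upstream (chr13:23695661-23695810, plus strand): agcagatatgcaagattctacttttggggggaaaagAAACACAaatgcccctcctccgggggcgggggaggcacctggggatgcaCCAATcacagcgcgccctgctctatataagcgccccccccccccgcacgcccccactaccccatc

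In the windows of the 59 cluster genes, CCAAT was found in 86.4%, against 39.2% of 18204 RefSeq promoters of the same length, and TATAAA in 57.6% against 13%. CCAAT was present in all H1, H2A, H2B and H3 windows but in only 3 of 11 H4 windows. The octamer was found in 6 of 17 H2A and 6 of 15 H2B windows and in no H1, H3 or H4 window, against 1.70% of all promoters. AAACACA was found in 5 of 6 H1 windows, including that of H1f6, against 6.23% of all promoters. Of the 5 cluster genes with no ATAC peak, all had CCAAT and none had TATAAA. The median GC content was 45.3% in the cluster windows and 56.3% in all. These are matches of letters only, and say nothing of whether a factor was bound.

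Most cluster genes gave few reads in the poly(A) libraries. A mean of at least 1 CPM was reached by 17 of the 69 genes and by 15 of the 64 cluster genes (23.4%), whereas 47% of all genes reached it. The median cluster gene had 0.50 CPM. Summed over all 64 cluster genes, the libraries held 58.4, 61.6, 59.3, 65.4 and 57.0 CPM, a mean of 60.3 ± 3.30 CPM (SD, n = 5), or 0.00603% of all counts. Between 5 and 16 cluster genes had no count in a given library, and 35 of 64 had a count in all 5. H2bc24 was the only member with no count in any library. The sum was thus low in all 5 libraries.

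**Figure D1:**
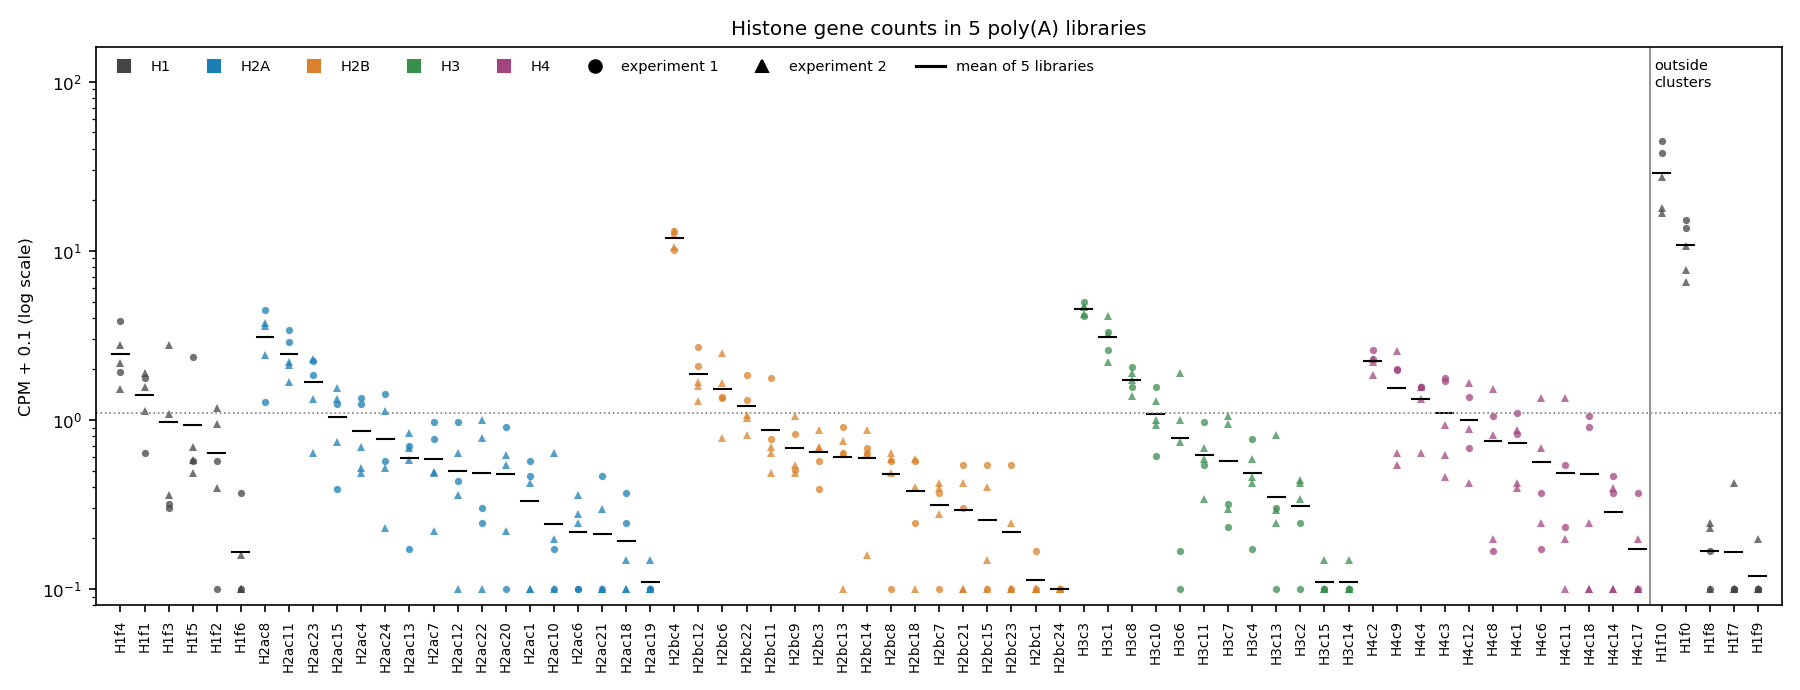
Level of each histone gene in the 5 poly(A) libraries, as CPM + 0.1 on a log axis. Circles are experiment 1, triangles experiment 2, bars the mean of 5 libraries, colours the histone class, and the dotted line marks 1 CPM. H2bc4 stands above the other cluster genes, and H1f10 and H1f0 are the highest of the 5 genes outside the clusters.

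H2bc4, an H2B gene, had the most reads of the cluster genes, with 175, 137, 191, 193 and 266 counts, or 11.7 ± 1.43 CPM (SD, n = 5). It alone held 19.4% of the cluster genes' summed CPM. The count table gives it a span of 8282 bp, with 2 RefSeq transcripts, whereas the median cluster gene spans 487.5 bp. Per kb of that span its level was 1.42 CPM, below that of H3c3. Another 4 cluster genes have more than 1 RefSeq transcript (H2bc6, H2bc22, H2bc23 and H2bc24), all of the H2B class, and H2bc6 spans 37455 bp. H2bc6 averaged 1.43 CPM and H2bc22 1.11 CPM, while H2bc23 averaged 0.117 CPM. Levels per kb of span are lower for such genes, since introns and long ends count in the length.

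By CPM per kb of span, H3c3, an H3 gene, was the highest of the cluster genes, with 76, 67, 64, 60 and 94 counts (4.43 ± 0.356 CPM, 9.23 CPM per kb). H3c1 followed with 35, 34, 62, 48 and 64 counts (5.94 CPM per kb). H3c3 was the higher of these H3 genes in each of the 5 libraries. H2ac8, the highest H2A gene, had 39, 16, 56, 65 and 71 counts (2.99 ± 1.25 CPM, 5.35 CPM per kb), and its lowest library was the 10000 cells of experiment 1. H2ac11, next in that class, had 35, 38, 31, 49 and 32 counts (4.96 CPM per kb), within the range of H2ac8. H4c2, which makes the core histone H4, had 29, 30, 34, 37 and 43 counts (2.14 ± 0.268 CPM, 4.75 CPM per kb). Other H4 genes among the 10 highest were H4c9 with 3.57 and H4c4 with 3.35 CPM per kb.

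In the H2B class H2bc12 led per kb, with 20, 27, 23, 39 and 32 counts (1.76 ± 0.548 CPM, 3.53 CPM per kb). Of the cluster H1 genes, H1f4 had 45, 51, 32, 27 and 29 counts (2.34 ± 0.897 CPM, 2.99 CPM per kb) and H1f1 averaged 1.3 CPM, while H1f2, H1f3 and H1f5 were under 1 CPM. H1f3 was uneven, with 45, 3, 4, 3 and 20 counts, and so was H1f5, with 8, 31, 6, 7 and 12 counts. Summed by class, mean levels were 5.94 ± 2.23 CPM for H1, 12.1 ± 2.44 for H2A, 20.3 ± 1.32 for H2B, 12.5 ± 1.5 for H3 and 9.47 ± 1.96 for H4 (SD, n = 5). Without H2bc4 the cluster sum was 44.0 to 52.5 CPM.

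The promoters of the same genes were open in most lists. A promoter peak is a peak within 1000 bp of the start of the gene. Such a peak was present in at least 1 of 8 lists for 61 of 69 genes (59 of 64 cluster genes), against 61.6% of all genes. It was present in at least 4 lists for 59 of 69 (57 of 64 cluster genes, 89.1%), against 42.1% of all genes. All 8 lists had a peak for 23 genes, all of them in the clusters, against 14.8% of all genes. Within 500 bp of the start the latter count was 13 of 69, against 13.6% of all genes. By class, a peak in at least 4 lists was found for 12 of 12 H4, 11 of 12 H3, 15 of 17 H2B, 14 of 17 H2A and 5 of 6 H1 cluster genes.

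**Figure D2:**
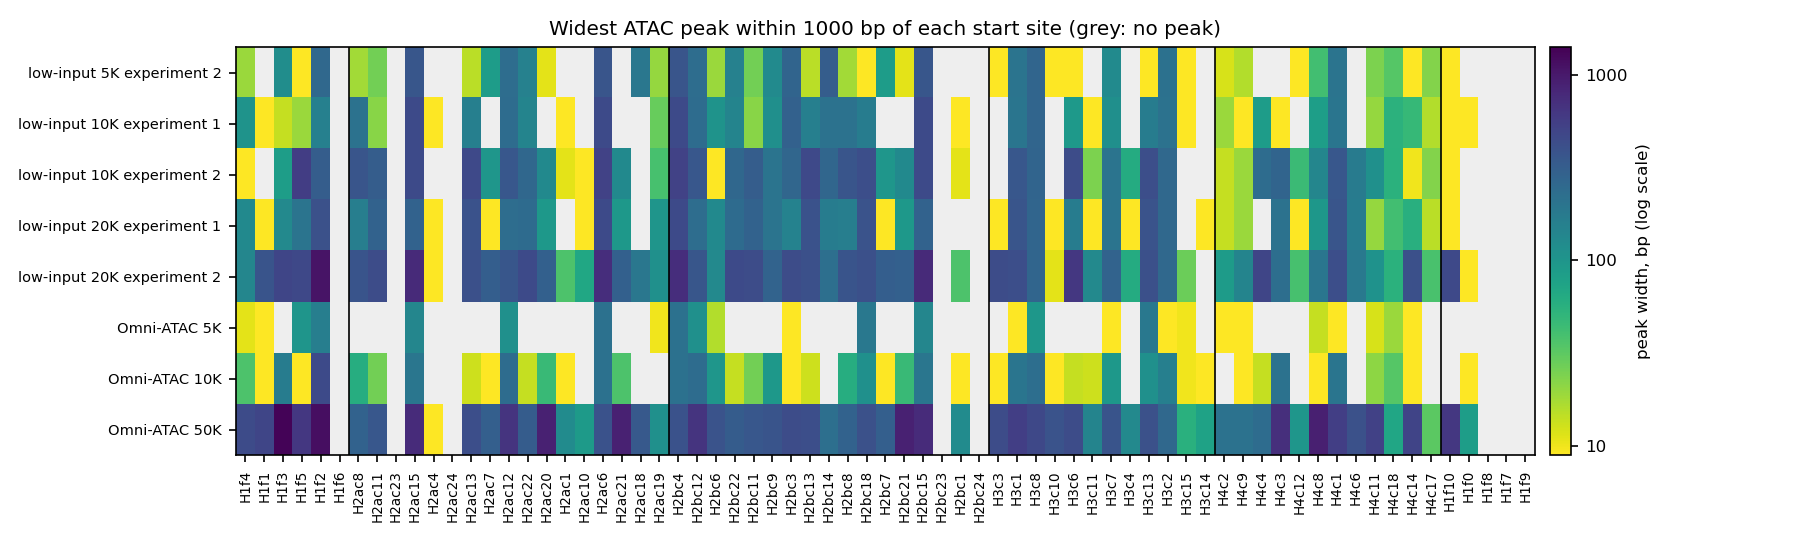
Width in bp (log colour scale) of the widest ATAC peak within 1000 bp of each histone gene's start, for the 5 low-input and 3 Omni-ATAC lists. Genes are grouped by class and ordered by mean CPM, with the 5 genes outside the clusters at the right, and grey means no peak. H2ac23, H2ac24, H2bc23, H2bc24, H1f6, H1f7, H1f8 and H1f9 are grey throughout.

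In the low-input lists the number of histone genes with a promoter peak was 48 of 69 for 5000 cells (all genes 31.1%), 48 and 53 for 10000 cells in experiments 1 and 2 (all genes 31.1% and 40.5%), and 55 and 60 for 20000 cells (all genes 37.4% and 50.3%). Omni-ATAC gave 27 for 5000 cells (all genes 18.6%), 50 for 10000 cells (all genes 41.5%) and 61 for 50000 cells (all genes 61.1%). The count was lowest in the shortest list and highest in the longest, and histone genes stood above all genes in each list. Because the clusters are dense, neighbours often share a peak: the distinct peaks behind these counts numbered 35, 36, 39, 41 and 45 in the low-input lists and 21, 37 and 46 in the Omni-ATAC lists. The median cluster gene is shorter than the window, so a peak behind the gene or at its neighbour also counts.

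Widths differed from list to list. The median width of a cluster gene's promoter peak was 26 bp in the low-input list from 5000 cells (72 bp over all genes with a promoter peak there) and 302.5 bp in that from 20000 cells of experiment 2 (199 bp over all genes). In the Omni-ATAC lists it was 14 bp with 5000 cells, 34 bp with 10000 cells and 387 bp with 50000 cells, where all genes had 11, 90 and 406 bp. The shortest interval deposited is 9 bp, and 55.3% of the cluster genes with a peak in the low-input list from 5000 cells had one narrower than 50 bp, as did 46.7% of all genes with one. When only peaks of at least 50 bp were used, 8 of 69 genes had one in all 8 lists, against 4.77% of all genes.

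**Figure D3:**
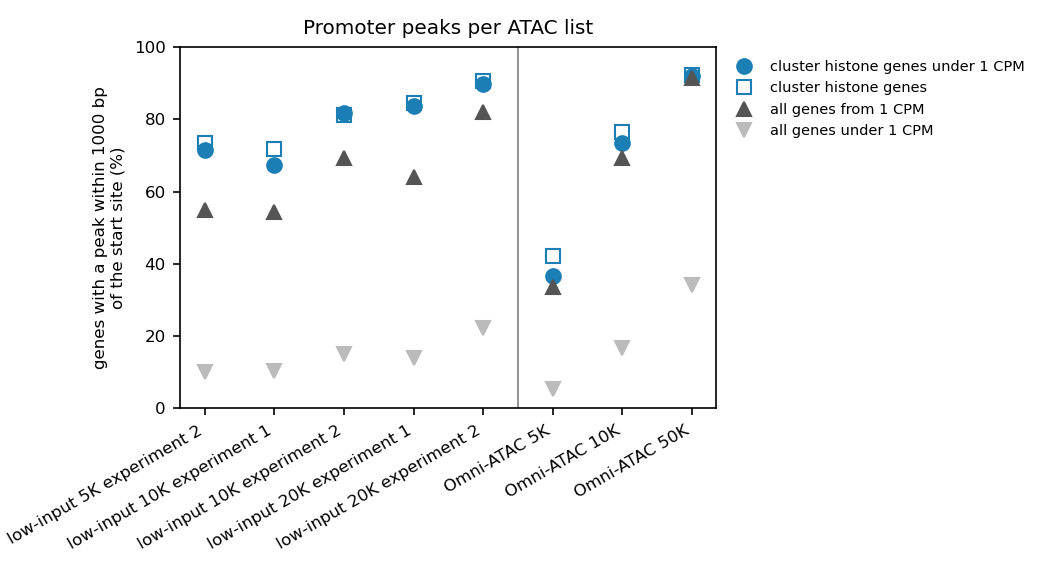
Percent of genes with an ATAC peak within 1000 bp of the start, for the 5 low-input lists (left) and 3 Omni-ATAC lists (right). Filled circles are cluster histone genes under 1 CPM, open squares all 64 cluster genes, dark triangles all genes from 1 CPM and light triangles all genes under 1 CPM. In each list the histone genes under 1 CPM lie above the other genes under 1 CPM, and also above the genes from 1 CPM.

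Low reads and an open promoter met in the same genes. Of the 52 histone genes with a mean under 1 CPM, 43 (82.7%) had a promoter peak in at least 4 lists, against 15.7% of the 12958 genes under 1 CPM. All 43 were cluster genes, of which 49 were under 1 CPM. A peak in all 8 lists was found for 16 of the 52, against 3.67% of genes under 1 CPM. With only peaks of at least 50 bp the count was 30 of 52, against 7.34%, and with a window of 500 bp it was 39, against 13.2%. Among genes from 1 CPM, 16 of 17 histone genes had a peak in at least 4 lists, against 71.8% of all such genes. By single lists, the 52 histone genes under 1 CPM had a promoter peak less often than all genes from 1 CPM with Omni-ATAC and 50000 cells (86.5% against 91.4%), about as often with Omni-ATAC and 10000 cells (69.2% against 69.3%), and more often in the other 6 lists. Under 0.5 CPM, 27 of 35 histone genes had a peak in at least 4 lists, against 12.9% of all genes. No test was made over genes.

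**Figure D4:**
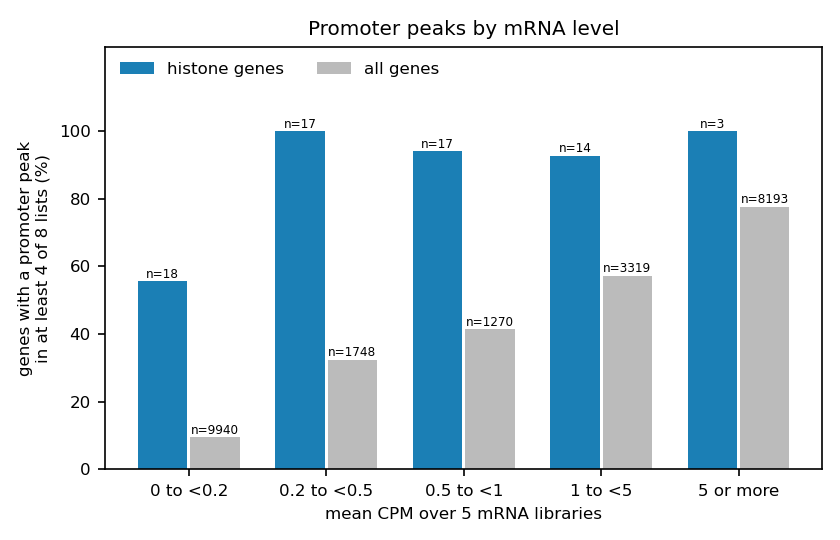
Percent of genes with a promoter peak in at least 4 of 8 ATAC lists, by mean CPM over the 5 mRNA libraries, for the 69 histone genes (blue) and all genes (grey), with the number of genes above each bar. The grey bars rise from 9.43% to 77.7%, while the blue bars lie between 92.9% and 100% in all bins but the lowest, where 10 of 18 genes had a peak.

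Read in steps of level, the share of all genes with such a peak went from 9.43% (under 0.2 CPM) through 32.4%, 41.4% and 57.2% to 77.7% (5 CPM or more). In the same steps the histone genes had 10 of 18, 17 of 17, 16 of 17, 13 of 14 and 3 of 3. The lowest step holds 6 of the 8 histone genes without any peak. In the middle steps nearly every histone gene had a peak, whatever its reads.

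Reads and peaks can also be set side by side within 1 lysate. With 5000 cells, 19 histone genes had no mRNA count, and 10 of them had a promoter peak in the ATAC library of the same cells, against 6.63% of all genes with no count. For 10000 cells this was 9 of 17 in experiment 1 (all genes 6.74%) and 10 of 17 in experiment 2 (all genes 7.74%). For 20000 cells it was 7 of 12 (all genes 7.19%) and 3 of 6 (all genes 11.5%). Each of the 5 matched pairs of libraries thus held histone genes with an accessible promoter and no read.

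The 5 histone genes with the lowest levels and a peak in all 8 lists were H2ac6, H2bc15, H4c14, H3c2 and H3c13. H2ac6, an H2A gene, had 3, 0, 4, 0 and 3 counts (0.117 ± 0.114 CPM, SD, n = 5), at or near the limit of a count of 0. Its promoter peak was 374, 451, 515, 451 and 733 bp wide in the low-input lists and 214, 214 and 393 bp in the Omni-ATAC lists. H2bc15 had 5, 6, 0, 0 and 1 counts, with peaks of 138 to 767 bp. H3c2 had 4, 2, 5, 0 and 7 counts, and its peak was 213, 210, 253, 256 and 256 bp wide in the low-input lists and 9, 160 and 253 bp in the others. H4c14 had 0, 5, 0, 4 and 6 counts, and H3c13 had 12, 0, 3, 3 and 3. The peaks of H4c14 were 9 to 58 bp in 6 lists and 407 and 501 bp in the lists from 20000 cells of experiment 2 and Omni-ATAC with 50000 cells. In both H4c14 and H3c13 the position of the peaks matters. For H3c13 the widest peaks were the intervals that also served H2bc18 next to it, centred 856 to 1062 bp behind the start of H3c13, whose span is 502 bp. Within 500 bp of its start, H3c13 had a peak in 3 lists. For H4c14, which spans 384 bp, the widest peak was centred 896 to 945.5 bp behind the start in 5 lists, and a peak lay within 500 bp in 5. H2ac6, H2bc15 and H3c2 had a peak within 500 bp in all 8 lists. Each of the 5 genes had at least 1 library with no count, and their mean levels ran from 0.117 to 0.251 CPM.

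Many H2A and H2B genes lie head to head and share a promoter. Among neighbours in the table, 13 pairs were transcribed away from each other with their starts less than 1000 bp apart, 12 of them H2A with H2B and 1 H2B with H3 (H2bc9 and H3c7). The gaps between starts were 167 to 607 bp, with a median of 239 bp. A peak lay over the gap in at least 4 lists for 11 of the 13, beside 65.5% of all 1061 neighbouring gene pairs of the table with the same arrangement and limit. It lay there in no list for H2bc23 with H2ac23 and H2ac24 with H2bc24. Yet the genes of a pair could differ widely in reads. H2ac6 and H2bc4 shared a single peak in all 8 lists over a gap of 239 bp, and had 0.117 and 11.7 CPM, or 0.240 and 1.42 CPM per kb of span. H2ac8 and H2bc8, with a gap of 179 bp and the same peak in 7 lists, had 2.99 and 0.376 CPM, or 5.35 and 0.811 CPM per kb. In the first pair the H2B gene was higher in every library, and in the second the H2A gene was. Counts for H2bc8 were 9, 0, 6, 7 and 10.

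Genes of other families lie among the histone genes. The longest stretch, chr13:23531044-23934913, holds 31 histone genes, 30 of them with a promoter peak in at least 4 lists, and 6 other genes, of which none had one. The other 6 are Hfe, which controls iron uptake, the solute carriers Slc17a1, Slc17a2, Slc17a3 and Slc17a4, and Trim38. Of these, 5 were under 1 CPM, a level at which 15.7% of all genes had such a peak, so none of 6 is near the background. Hfe averaged 2.35 CPM, with a peak in 2 lists. In the stretch chr13:21715713-22043658, 19 of 23 histone genes and 3 of 4 other genes (Mir1983, Pom121l2 and Zfp184, but not Prss16) had such a peak. On chromosome 3 (chr3:96219916-96270192) it was 8 of 10 histone genes, with no other gene in between, and none of the 10 reached 1 CPM. No test was made of these counts. The 4 genes with former Hist3h or Hist4h names had peaks in 7 or 8 lists, with 1.47 CPM for H4f16, 0.288 for H2bu2, 0.118 for H2aw and 0.0129 for H2bu1-ps.

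The 8 histone genes with no promoter peak in any list fell into 2 kinds. One kind is 4 linker histone genes known from germ cells: H1f6, H1f7 and H1f9, which act in male germ cells, and H1f8 of the oocyte. H1f6 had 1, 0, 0, 4 and 0 counts, H1f7 had 0, 0, 5, 0 and 0, H1f8 had 0, 0, 2, 1 and 3, and H1f9 had 0, 0, 0, 0 and 2. H1f9 overlaps Sgca in the table, so a read there cannot be assigned with certainty. The testis genes H2ac1 and H2bc1, which share a start region, differed from these: they had a peak in 5 lists, of 9 to 122 bp for H2bc1. H2ac1 averaged 0.231 CPM, and H2bc1 had 1 count in all.

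The other kind is the near-copies H2bc23 with H2ac23 and H2ac24 with H2bc24. H2ac23 had 9, 29, 19, 26 and 45 counts (1.56 ± 0.691 CPM, SD, n = 5) and was the only histone gene of at least 1 CPM without a peak. H2ac24 had 7, 18, 2, 7 and 21 counts, H2bc23 had 0, 6, 0, 0 and 3, and H2bc24 had none. The promoter windows of H2bc23 and H2bc24 are identical over 300 bases, and those of H2ac23 and H2ac24 over 200 bases. Another 4 pairs of cluster genes have windows over 95% identical: H4c17 and H4c18, H3c14 and H3c15, H4c11 and H4c12, and H2ac18 and H2ac19. The next most alike pair, H2ac22 and H2ac24, has 54.8%. The 12 genes of these 6 pairs had a median of 0.105 CPM, with 1 of 12 at 1 CPM or more and 6 of 12 with a peak in at least 4 lists. The other 47 cluster genes with a promoter sequence had a median of 0.541 CPM, and 46 of them had such a peak. How reads that match several places were treated is not given in the sources used here, so reads and peaks of these 12 genes are uncertain, and the part of it in their values was not tested.

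Between experiments 1 and 2, done on different days, a linker histone gene outside the clusters was called as changed and no cluster gene was. This contrast was not itself tested. Calls are at a Benjamini-Hochberg adjusted p under 0.05 in an edgeR quasi-likelihood test. Of 29 histone genes with enough counts to test (27 in the clusters), 1 was called, H1f10, against 12.5% of 12523 genes tested. It was lower in experiment 2, as were 6.76% of all genes, while 5.75% were higher. None of the 27 cluster genes was called by edgeR. Of them, 1 (H4c18) had an unadjusted edgeR p under 0.05, beside 3216 of the 12523 genes tested. None was called by DESeq2 either. Many of the 27 had few counts and wide errors, such as H4c3 with a log2 fold change of -1.26 ± 0.80 (SE). Not being called therefore does not mean that they were unchanged, and the 12.5% is over genes of all count levels. The median log2 fold change of the 27, experiment 2 against experiment 1, was -0.24, beside 0.001 over all genes tested. Of the 27, 20 were below 0 and 7 above, where 6248 of the 12523 genes tested were below 0. A gene could pass the count filter through 1 experiment alone, as H4c18 did with 13 and 12 counts against 0 and 3. The signs and the median can therefore be partly set by the filter and were not read as a change.

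H1f10, a widely made linker histone with a polyadenylated mRNA, had 16.5, 44.4, 17.7, 37.9 and 27.3 CPM. Both libraries of experiment 1 were above all 3 of experiment 2. The fit on the 4 libraries from 10000 and 20000 cells gave a log2 fold change of -0.87 ± 0.19 (SE), with an edgeR adjusted p of 0.0029, and 0.000128 with the number of cells as a block. Without the library of 10000 cells of experiment 2 the edgeR adjusted p was 0.107 and the call was lost. H1f10 was the highest histone gene of the 69 per kb of span (27.1 CPM per kb), and its start had peaks of 9 bp in 4 low-input lists and of 459 and 622 bp in the lists from 20000 cells of experiment 2 and Omni-ATAC with 50000 cells.

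H1f0, the linker histone known from differentiating and resting cells, had 7.64, 15.2, 10.6, 13.5 and 6.46 CPM. Here too both libraries of experiment 1 lay above the 3 of experiment 2. Its log2 fold change was -0.76 ± 0.26 (SE), with an edgeR adjusted p of 0.0568 that fell to 0.0232 with the number of cells as a block. With scaling by library size alone the edgeR adjusted p was 0.0651, and the DESeq2 adjusted p was 0.215. When each library was left out, the log2 fold change of H1f0 ran from -1.14 to -0.42. H1f0 had peaks in 4 lists, of 9 bp in 3 of them and 85 bp with Omni-ATAC and 50000 cells.

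**Figure D5:**
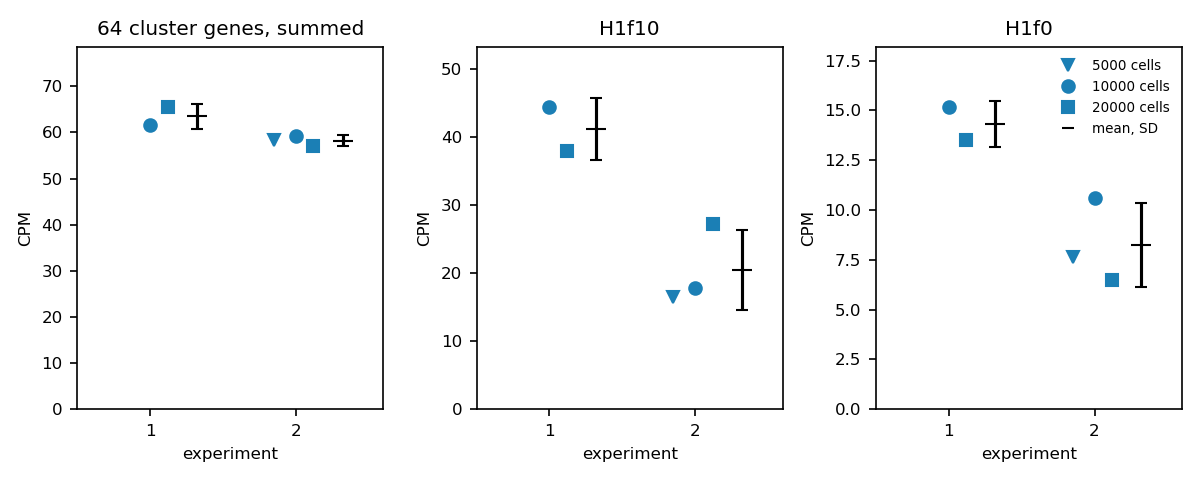
CPM in the 5 poly(A) libraries by experiment for the 64 cluster genes summed, H1f10 and H1f0. Points are libraries, with the shape giving the number of cells, and bars give the mean and SD (n = 2 for experiment 1, n = 3 for experiment 2). In each panel both values of experiment 1 lie above those of experiment 2, with the smallest relative gap for the cluster genes.

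Summed over the 64 cluster genes, experiment 1 had 63.5 ± 2.75 CPM (SD, n = 2) and experiment 2 had 58.2 ± 1.18 CPM (SD, n = 3), a difference of -5.26 CPM with an exact two-sided permutation p of 0.1, the smallest that 10 splits can give. The ranges did not overlap. The sum over the 5 genes outside the clusters was 55.5 ± 5.65 against 29.0 ± 4.91 CPM, also with an exact p of 0.1. By class, the H4 sum was 11.4 ± 0.253 CPM in experiment 1 and 8.18 ± 1.2 CPM in experiment 2, and the H2B sum was 21.3 ± 1.14 and 19.6 ± 1.09 CPM, in both cases without overlap. The H2A sum was 13.6 ± 2.58 and 11.1 ± 2.18 CPM, with overlap. The H3 sum was higher in experiment 2, with 11.4 ± 1.68 and 13.3 ± 0.931 CPM, and the H1 sum was 5.81 ± 2.91 and 6.03 ± 2.37 CPM, both with overlap (SD, n = 2 and n = 3). Over the 5 classes the exact permutation p ran from 0.1 (H4) to 1 (H1). The experiments also differed in markers of other cell types. The 7 fibroblast markers summed to 31.4 to 34.9 CPM in experiment 1 and 7.54 to 10.0 CPM in experiment 2, nearly all from Thy1, with Col3a1 and Lum at 0. The 6 primitive endoderm markers summed to 9.03 to 14.3 and 1.91 to 2.45 CPM, and the 3 neural markers to 3.61 to 4.30 and 8.47 to 11.5 CPM. The neural difference came from Pax6, with means of 0.0728 and 5.35 CPM, while Neurod1 had 1.46 and 0.833 CPM. The 5 trophoblast markers summed to 29.0 to 30.8 CPM in experiment 1 and 24.6 to 26.7 CPM in experiment 2. Of these, 2 were tested and 0 called. Thy1 was called lower in experiment 2 (-2.19 ± 0.21, edgeR adjusted p of 6.75e-08), as were the primitive endoderm genes Dab2 (-3.06 ± 0.53, 0.000264) and Gata6 (-3.81 ± 1.01, 0.0131), and Pax6 was called higher (6.08 ± 0.83, 1.49e-05). Of the 8 stem cell markers, Klf4 (0.42 ± 0.13, edgeR adjusted p of 0.0381) and Zfp42 (0.38 ± 0.11, 0.0282) were called higher in experiment 2. The calls for Gata6, Klf4 and Zfp42 were lost when 1 library was left out. Their part in the histone values was not tested, and in bulk libraries fewer cells and less RNA per cell cannot be told apart.

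Between 20000 and 10000 cells no histone gene was called by edgeR, nor was any of the 12523 genes tested (0%). DESeq2 called no histone gene either. Of the 29 histone genes, 1 (H4c8) had an unadjusted edgeR p under 0.05. So did a small share of all 12523 genes tested, and H4c8 was not read as changed. On simulated counts this fit, which has no block, recovered 0% of 2-fold and 62.3% of 4-fold changes, so 2-fold changes were not detectable with it. No simulation was run with the experiment as a block. H4c8 had 12, 13, 22, 1 and 2 counts, with both libraries from 20000 cells below the others. The library from 5000 cells has no replicate. Against the mean of the other libraries of experiment 2, 0 of the 17 histone genes of at least 1 CPM differed by 2-fold or more on the log2(CPM + 1) scale, where 2.96% of all genes did. Their log2 differences ran from -0.82 to 0.68, with a median of -0.20, beside -0.12 over all genes. Of the 17, 14 lay at 1 to 5 CPM, where the added 1 shrinks differences. With a pseudocount of 0.1, 4 of the 17 differed by 2-fold (H2ac23, H2bc6, H4c4 and H4c9, 1 higher and 3 lower), against 8.1% of all genes, so the count of 0 rests on the pseudocount.

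The replacement histones ranged widely in level per length. Of 17 listed, 15 were found in the table, 5 of which are the H1f genes counted above. Of the 15, 8 lay above H3c3, the highest cluster gene with 9.23 CPM per kb of span, and 7 below it. H2az1, which makes the H2A variant H2A.Z, had 219 CPM per kb of span, and H3f3b, which makes H3.3, had 189. H3f3a, the other H3.3 gene, had 24.8 and H2ax, the H2A variant marked at DNA breaks, 23.9 CPM per kb, and H2aj, H2az2, Cenpa and H1f10 were also above H3c3. Below it were H1f0 with 4.65, Macroh2a1 with 0.983 and Macroh2a2 with 0.249 CPM per kb, then H1f7, H1f9, H1f8 and H2ab3, the last with no count. Spans of genes such as Macroh2a1 include long introns, so levels per length of spliced mRNA are higher than these values. Of the 9 non-members tested between experiments, 2 rose and 2 fell, against 12.5% of all genes called. Macroh2a1 (log2 fold change 1.12 ± 0.17 SE, edgeR adjusted p of 7.69e-05) and H2az1 (0.43 ± 0.11, edgeR adjusted p of 0.0135) were higher in experiment 2, and H2aj (-0.55 ± 0.12, edgeR adjusted p of 0.0034) and H3f3b (-0.35 ± 0.11, edgeR adjusted p of 0.0396) were lower. The calls for H2az1 and H3f3b were lost when 1 library was left out.

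The genes that act on histone mRNAs were all present. Each of 21 genes listed for transcription and 3′ end processing of histone mRNA averaged at least 1 CPM, and 18 had a promoter peak in at least 4 lists, beside 71.8% of all genes from 1 CPM. Slbp averaged 27.5 ± 4.87 CPM, Npat 13.9 ± 1.93, Casp8ap2 (FLASH, which joins the processing machinery to the locus body) 10.1 ± 2.49, and Lsm10 and Lsm11, proteins of the U7 particle that guides the cut, 44.3 ± 7.74 and 16.4 ± 3.32 CPM (SD, n = 5). Of the 20 tested between experiments, Cstf2 was higher (0.59 ± 0.20, edgeR adjusted p of 0.0475) and Ccne1 lower (-0.44 ± 0.11, edgeR adjusted p of 0.011) in experiment 2, and each lost its call when 1 library was left out. Cstf2 was also not called with scaling by library size alone (edgeR adjusted p of 0.0631) or by DESeq2. These 2 of 20 stand beside 12.5% of all genes called. None of the 5 described first was called. All 16 histone chaperones averaged at least 1 CPM, and none was called by edgeR between experiments, against 12.5% of all genes. Of the 16, 4 had an unadjusted edgeR p under 0.05, beside 3216 of all 12523 genes tested, and DESeq2 called 1 (Ssrp1). With the number of cells as a block, Asf1b was called (log2 fold change 0.38 ± 0.13 SE and edgeR adjusted p of 0.0544 without the block, adjusted p of 0.0425 with it). The first 5 of them, which carry or deposit new histones at replication forks or in the nucleus, averaged 71.1 (Chaf1a), 175 (Chaf1b), 59.1 (Asf1a), 98.7 (Asf1b) and 262 CPM (Nasp).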

How the data were processed

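The authors deposited whole-number counts per gene for the 5 mRNA libraries in 1 table, which has mm10 positions per its header. Peaks were deposited as intervals, 1 list per ATAC library and a unified list, with no height or score. Per the submitters' processing notes, which give no roles or order, the tools included cutadapt, Bowtie2 2.1.0, SAMtools 1.3.1, Picard, bedtools 2.24.0, MACS2 2.1.1, STAR 2.5, featureCounts and Subread 1.5.0-p1. Strand use, multi-mapped reads and peak thresholds are not given in the sources used here. Total counts ran from 13727122 to 20426252, and the limit for a count of 0 is 3 counts, which covers counting error only. For the ATAC lists the depth is unknown. Each pair of mRNA libraries differed beyond sampling noise (chi-square per gene of at least 10.7).

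Of 24470 gene IDs, 24467 matched the RefSeq table of GRCm38.p6, which also gave older names, and start and end of 55 of the 69 histone genes were equal in both. CPM were computed from library totals. A promoter peak is an interval within 1000 bp of the 5′ end of the gene in the table. Experiments and cell numbers were compared on the 4 libraries from 10000 and 20000 cells with edgeR 4.0.16 in R 4.3.3 (TMM, filterByExpr, glmQLFit, glmQLFTest, no block), fitted on all genes, p-values being adjusted after Benjamini and Hochberg and called under 0.05. Sums were compared by exact two-sided permutation tests over 5 libraries. Promoter windows were aligned without gaps at shifts of up to 150 bases to find near-identical pairs. The fits were tested on simulated counts with 200 changed genes. Between experiments 52.5% of 2-fold (12472 genes) and 98.5% of 4-fold changes (12545 genes) were called. Between cell numbers it was 0% (12534 genes) and 62.3% (12485 genes). The changed genes were drawn above a limit on mean counts, and all genes were given the same spread. These shares therefore need not hold for histone genes with few counts.

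The labels give the experiment of each library, and per the design text the experiments were done on different days. This pairs the 10000-cell and 20000-cell libraries of an experiment. As a check, the change from experiment 1 to 2 with 10000 cells was set against that with 20000 cells over the 11512 genes of at least 1 CPM (Pearson r = 0.562, same sign in 67% of genes). Alternatives were DESeq2 1.42.0, RLE size factors, scaling by library size only, other filters and thresholds, blocks, windows of 500 and 2500 bp, peaks of at least 50 bp, the widest 9097 peaks of each list, the unified list, pseudocounts of 1 and 0.1, and leaving out each library. The members and gene lists were chosen with earlier results of these data known. Genes were named by rule: the 10 highest per kb of span and the highest of each class, called genes, the 5 lowest with a peak in all 8 lists, those from 1 CPM with no peak, the first 5 and the called genes of each of the 3 lists of histone-related genes, the called genes of the marker lists, and the 2 head-to-head pairs with the highest sums. Any further gene was picked with its values in view. The software was Python 3.11.15 with scipy 1.17.1, pandas 2.3.3, numpy 2.4.6 and matplotlib 3.10.9.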

Additional observations from a re-analysis of the deposited data

How the results depend on the processing

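Of 69 histone genes, 1 was called between experiments, and under the alternatives the count was 2 with no filter on low counts, 2 with a mean of at least 10 CPM, 2 with the number of cells as a block, 0 where the log2 fold change also had to reach 1 in size and 0 with cluster genes only, and 1 to 2 when each library was left out. The added call was H1f0 in each case with 2, and without the 10000 cells of experiment 2 the 1 call was H1f0 in place of H1f10. Between 20000 and 10000 cells the count was 0 in all alternatives, with the experiment as a replicate block too (0), so that the pairing changed no call there. The difference of the summed CPM was -31.8 over all 69 genes and ran from -33.9 to -29.5 when each library was left out. It was -11.2 without H1f10, the gene with the most counts, and -5.06 without H1f0 and H1f10, an alternative chosen after seeing the data. The 17 genes of at least 1 CPM became 34 at 0.5 CPM, and 18 to 21 when each library was left out. The 23 genes with a promoter peak in all 8 lists (14.8% of all genes) became 13 within 500 bp (13.6% of all genes), 35 within 2500 bp (16.1%), 8 with peaks of at least 50 bp (4.77%) and 8 with the widest 9097 peaks of each list (6.13%), and 23 to 34 when each list was left out. A narrower window or fewer peaks can only lower this count, and a wider window or fewer lists can only raise it. The cause of these and the other shifts was not tested. The unified list put a peak at 47 of the 69 genes (33.2% of all genes), against 61 for the 8 lists together (61.6%). The 43 genes under 1 CPM with a peak in at least 4 lists became 27 of 35 under 0.5 CPM, or 77.1% in place of 82.7%, where all genes had 12.9% and 15.7%. Of the 17 genes compared with 5000 cells, 0 differed by 2-fold, and 4 did with a pseudocount of 0.1, where 8.1% of all genes did.

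Few counts limit the cluster genes: only 27 of 64 entered the fits, and a count of 0 allows up to 0.147 to 0.219 CPM. The alternative for a table with older gene names was not run, because the table has the current names. Experiment and day cannot be told apart, and 2 libraries per group leave the spread poorly known.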

Other observations

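The peaks near the linker histone genes in the clusters varied in position. In the Omni-ATAC list from 50000 cells the middle of the widest peak within 1000 bp lay at -1087 bp for H1f1, where negative values are before the start, and at 122.5 bp for H1f4, 500.5 bp for H1f2, 608 bp for H1f3 and 949.5 bp for H1f5. The median over the cluster H1 genes with a peak ran from 178.5 bp (low-input, 20000 cells of experiment 2) to 842 bp (low-input, 20000 cells of experiment 1) over the 8 lists. For H2A it ran from -134.5 to -62.0 bp and for H2B from -109.25 to -81.0 bp. The H3 medians lay on both sides of the start, from -102 to 214.75 bp, and so did the H4 medians, from -51.5 to 324.25 bp. At most 5 H1 genes stand behind each H1 median, and no test was made of these positions.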
